A study of Mus musculus with 6 samples.

Results

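The glycolysis and hypoxia response genes described here are 35 genes chosen by symbol, of the 24982 gene symbols counted in each sample. They comprise 23 glycolysis genes (glucose and lactate transport, the enzymes and their regulators) and 12 genes of the response to low oxygen. RNA was sequenced from KMWT1, a mouse glioma cell line, 48 hours after transfection with a pool of siRNAs against YY1 (samples 4, 5 and 6) or with a control siRNA (samples 1, 2 and 3). All 6 samples thus come from 1 line, no label mentions low oxygen as a treatment, and no label says whether samples of a group came from cultures of their own. The p-values therefore reflect the variation among these samples, which may be technical. All 35 members have a row in every count table, and 34 passed the filter on low counts. Eno1 was the exception.

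Glycolysis splits glucose into pyruvate in the cytosol, and many tumours, gliomas among them, run it at a high rate and release lactate even when oxygen is present. Its enzymes share a regulator, HIF-1, a pair of the oxygen-regulated subunit Hif1a and the stable subunit Arnt. In oxygen, the prolyl hydroxylases of the Egln family mark HIF alpha subunits for the ubiquitin ligase that contains Vhl, and when oxygen is low the factor persists and binds a short core, ACGTG or GCGTG, at its targets. YY1, the zinc finger factor lowered in this series, can activate or repress transcription and binds a motif around GCCAT.

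The members share the letters of the hypoxia core in their promoters. Of 33 members with a RefSeq promoter window (GRCm38.p6, 250 bases before to 50 bases after a start), 30 (90.9%) held ACGTG or GCGTG on either strand, against 68.1% of 9577 tested genes with a window and 46.7% of all 27025 genes with one. Counted by window, the shares were 80.9% of 47 member windows, 62.1% of those of tested genes and 43.8% of all 32851. The windows had a median GC content of 62.3%, 61.0% and 52.7% in the same order. Ndrg1 and Epas1 had no window. Many members are known HIF targets, so their promoters do not bear independently on the list, and a match of 5 letters is a description, not a binding site.

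Stretches of 5 of these windows are printed, 5′ to 3′ on the strand of the gene, with the matches in capitals. Ldha, at chr7:46845644-46845853 (plus strand), held the most matches, 7 in 5 capital runs, since CACGTG matches on both strands. Pgam1 (chr19:41911681-41911802, plus strand) and Egln1 (chr8:124949303-124949395, minus strand) are the tested members whose samples did not overlap between the groups. Bnip3 (chr7:138909522-138909638, minus strand) and Ankrd37 (chr8:45999837-46000100, minus strand) are the members furthest above the other samples in YY1 siRNA sample 6.
Ldha: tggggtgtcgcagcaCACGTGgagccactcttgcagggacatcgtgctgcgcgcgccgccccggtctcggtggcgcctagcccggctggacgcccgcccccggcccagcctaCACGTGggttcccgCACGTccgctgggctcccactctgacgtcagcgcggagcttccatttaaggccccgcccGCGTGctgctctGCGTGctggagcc
Pgam1: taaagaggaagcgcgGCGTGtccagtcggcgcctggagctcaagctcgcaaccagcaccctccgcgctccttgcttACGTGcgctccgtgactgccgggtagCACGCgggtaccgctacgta
Egln1: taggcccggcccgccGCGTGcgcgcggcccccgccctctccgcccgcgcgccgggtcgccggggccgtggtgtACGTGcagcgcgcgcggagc
Bnip3: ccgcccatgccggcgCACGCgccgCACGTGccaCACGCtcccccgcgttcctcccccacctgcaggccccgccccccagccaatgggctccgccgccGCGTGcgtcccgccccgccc
Ankrd37: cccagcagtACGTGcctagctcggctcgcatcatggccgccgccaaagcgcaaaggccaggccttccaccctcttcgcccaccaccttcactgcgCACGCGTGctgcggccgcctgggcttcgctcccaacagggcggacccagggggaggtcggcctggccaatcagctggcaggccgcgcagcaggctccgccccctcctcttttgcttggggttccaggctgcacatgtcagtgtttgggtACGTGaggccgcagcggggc

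The longer YY1 motif AANATGGC, searched on both strands, was found in 1 member of 33 (3.03%), Pfkm, against 10.3% of tested genes with a window and 6.96% of all genes with one. Its match, the reverse complement, is shown in capitals within chr15:98108447-98108484 (plus strand), a stretch around the start of 1 of several Pfkm transcripts.
Pfkm: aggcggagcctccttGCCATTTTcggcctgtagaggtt

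The shorter core GCCAT, which lies within that motif, was found in 11 of the 33 members (33.3%) and 44.2% of all genes with a window. Its share among tested genes, the closer comparison, was not counted. None of these counts says whether YY1 or HIF bound there in these cells.

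The YY1 siRNA samples held 19210104, 18644522 and 15738457 counts in genes, and the control siRNA samples 20644057, 19209772 and 18680762. At these depths 3 counts equal 0.145 to 0.191 CPM. Levels are given as CPM, the count scaled to library size, with TMM factors that correct for composition. Yy1 RNA, the target, fell to 81.2, 77.6 and 78.6 CPM in YY1 siRNA samples, against 127, 128 and 126 CPM in control siRNA samples (log2 fold change -0.68, SE 0.064, edgeR adjusted p 0.00154). Of 10 glioma and progenitor markers, the line expressed Sox2, Nes, Sox9, Cd44 and Vim, and the other 5 were under 1 CPM. Olig2, Olig1 and Prom1 were at 0 CPM, Msi1 had at most 1 count in a sample and Pax6 had 4 to 8. The astrocyte marker Gfap had at most 2 counts in a sample. Of the markers of other cells, 7 of 8 for microglia, 5 of 6 for endothelium, 4 of 6 for oligodendrocytes, 5 of 8 for neurons, 5 of 8 for astrocytes and 2 of 8 for fibroblasts or pericytes were under 1 CPM. At an unadjusted edgeR p under 0.05 the fibroblast and pericyte genes Dcn and Rgs5 were higher in YY1 siRNA samples and the neuronal gene Syn1 was lower, none of them past the adjusted threshold. The 6 tested fibroblast and pericyte markers were split, 3 with a fitted change above 0 and 3 below 0 (Col1a1, Col3a1 and Pdgfrb), and 10.8% of all genes had such a p.

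Most members were well expressed. Over the 6 samples 31 of 35 averaged at least 10 CPM, as did 8890 of 12148 genes tested. The median over the 34 tested members was 475 CPM in YY1 siRNA samples and 492 CPM in control siRNA samples. In the control group 13 members stood at 1000 CPM or more, hypoxia members such as Ero1l and Ndrg1 among them. The 17 enzymes from hexokinase to lactate dehydrogenase took 2.24%, 1.98% and 1.82% of all gene counts in YY1 siRNA samples 4, 5 and 6, against 2.24%, 2.21% and 2.15% in control siRNA samples 1, 2 and 3. Eno1, with 1 to 7 counts in a sample, is 1 of the 17, so the main enolase hardly enters these shares. Sample 4 lay with the controls and samples 5 and 6 lay below them, so the groups overlapped. Per kilobase of annotated exon, Pkm led with 1126 ± 105 CPM per kb in YY1 siRNA samples and 1222 ± 30.4 in control siRNA samples (SD, n = 3 each). Aldoa followed at 1014 ± 141 and 1088 ± 49.0, then Ldha at 896 ± 86.8 and 924 ± 4.12 and Pgk1 at 839 ± 59.2 and 830 ± 10.3. Neighbours among these 4 differed by less than the larger of their SDs in YY1 siRNA samples and by more than it in control siRNA samples. Their order is also uncertain because 34.4%, 13.5%, 16.6% and 68.0% of the 50-base words of their longest transcripts occur in transcripts of other genes. Of the hypoxia members, Ero1l led with 680 ± 25.5 and 705 ± 57.7 CPM per kb, followed by Bnip3 with 577 ± 131 and 478 ± 51.4. The lowest tested members were Epas1, at 0.633 ± 0.161 and 0.648 ± 0.150, Pfkfb4, at 1.43 ± 0.134 and 1.58 ± 0.124, and Ldhb, at 1.71 ± 0.243 and 1.76 ± 0.159 CPM per kb.

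**Figure D1:**
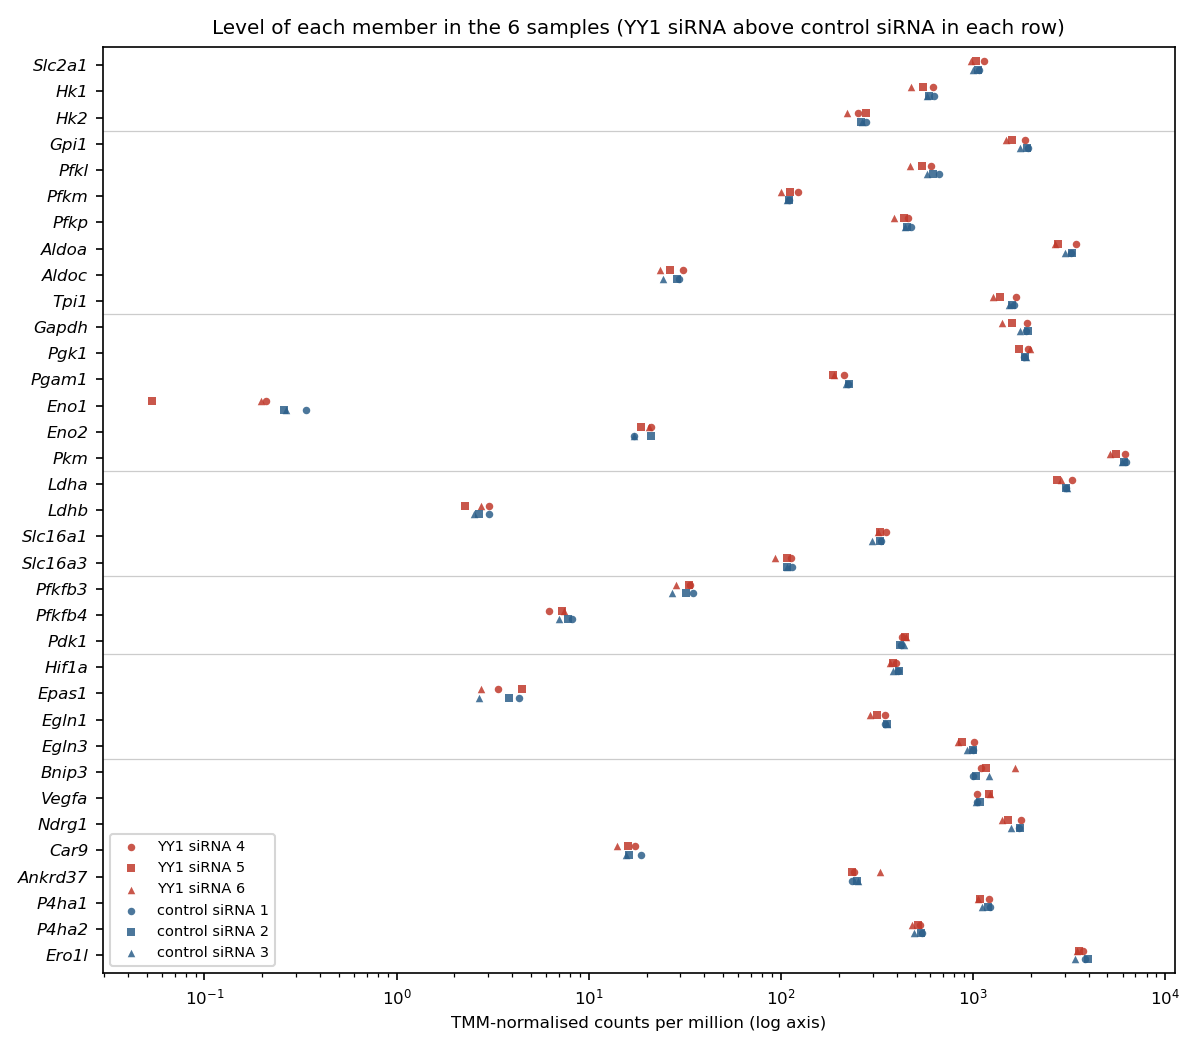
TMM-normalised CPM (log axis) of the 35 members in each of the 6 samples, with YY1 siRNA samples in red above control siRNA samples in blue in each row, and grey lines between role groups. Levels span from under 1 CPM for Eno1 to 6253 CPM for Pkm, and the colours overlap in nearly every row.

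No member was called after YY1 knockdown. With edgeR's quasi-likelihood test adjusted over all 12148 genes tested, 0 of 34 members passed (smallest adjusted p 0.401, for Pgam1). That test called 0.00823% of all genes, which is Yy1 alone. DESeq2 called 0 members and 0.149% of the genes it tested, and limma-voom called 0 members. At an unadjusted edgeR p under 0.05 there was 1 member of 34 (2.94%), against 10.8% of all genes. That member was lower in YY1 siRNA samples, as were 5.46% of all genes, and 0 members were higher, against 5.38% of all genes. The samples of both groups did not overlap for 2 of the tested members, both lower with YY1 siRNA (5.88%, against 8.91% of all genes), and 0 members lay wholly higher, against 7.36% of all genes. These shares lie below the background. The 95% interval reached no further than 1.5-fold, up or down, for 33 of 34 members, Bnip3 being the exception, and no further than 1.25-fold for 17 of 34. The same held for 82.2% and 51.7% of all genes.

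The fitted change was below 0 for 24 of 34 members (70.6%), against 49.8% of all genes. Their median log2 fold change was -0.067, against 0.00070 for all genes. It was -0.082 for the 22 tested glycolysis members (15 below 0) and -0.058 for the 12 hypoxia members (9 below 0). Single libraries moved these medians. Leaving out YY1 siRNA sample 6 gave a glycolysis median of -0.030, and leaving out sample 4 gave -0.13. The hypoxia median was -0.022 without control siRNA sample 1, -0.033 without control siRNA sample 2 and -0.12 without control siRNA sample 3. Members of a pathway are not independent, and in bulk RNA fewer expressing cells and less RNA per cell cannot be told apart. With a covariate for the percentage of counts in no gene, an alternative chosen after seeing the data, 12 of 34 were below 0.

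**Figure D2:**
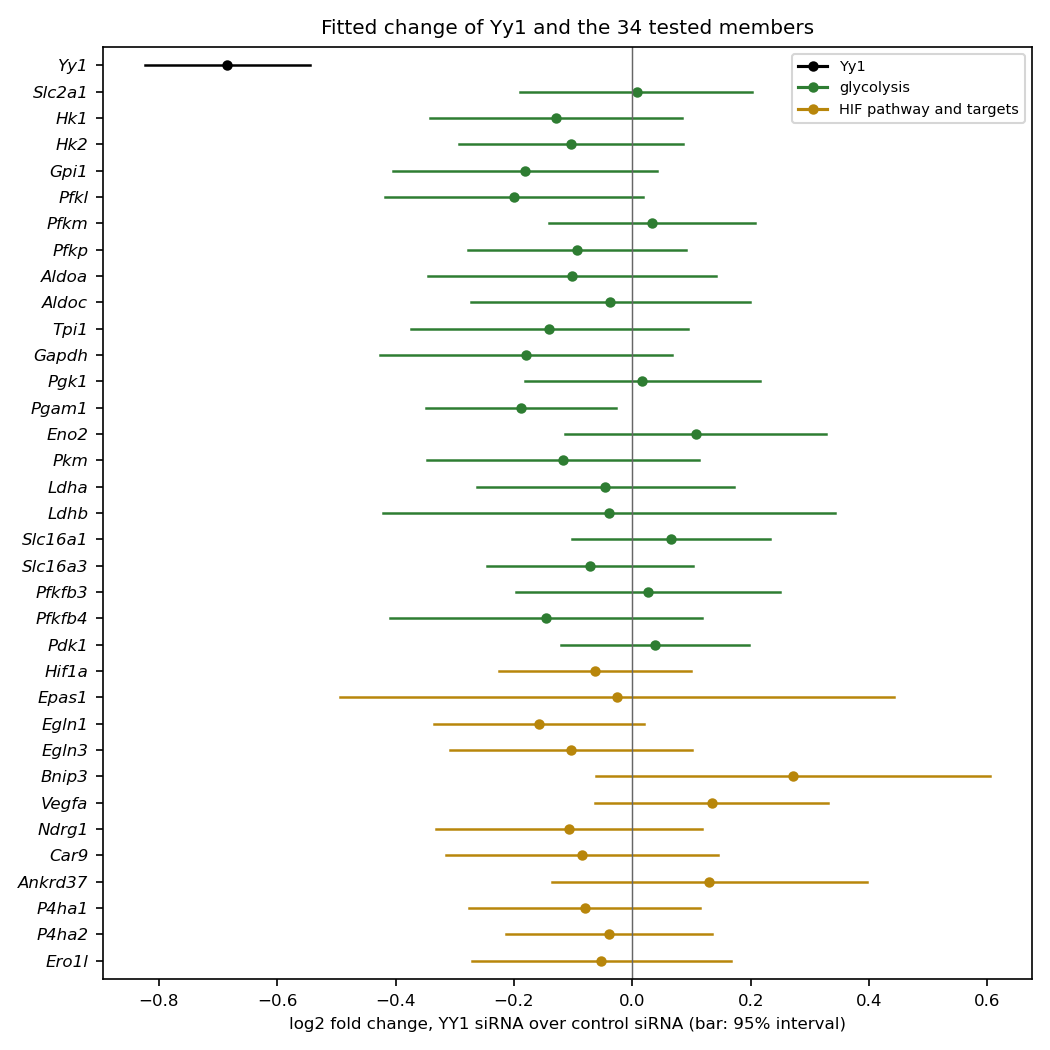
Log2 fold change of YY1 siRNA over control siRNA with its 95% interval for Yy1 (black) and the 34 tested members (green for glycolysis, ochre for the HIF pathway and its targets). Yy1 stands apart at -0.68, and the intervals of all members but Pgam1 cross 0.

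Of the 3 genes of glucose uptake and phosphorylation, 2 had a fitted change below 0 (median log2 fold change -0.10). Glucose enters through Slc2a1 (GLUT1), which had 1144, 1037 and 972 CPM in YY1 siRNA samples and 1072, 1065 and 1002 CPM in control siRNA samples. The YY1 siRNA samples bracketed the controls on both sides (log2 fold change 0.0073, SE 0.090, edgeR adjusted p 0.983). The hexokinases Hk1 and Hk2, which trap glucose as its phosphate, had log2 fold changes of -0.13 (SE 0.098) and -0.10 (SE 0.087), with overlapping samples.

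Of the 7 upper enzymes, from Gpi1 to Tpi1, 6 had a fitted change below 0 (median log2 fold change -0.10). The aldolase gene Aldoa had 3419, 2773 and 2661 CPM in YY1 siRNA samples, against 3225, 3270 and 3003 CPM in control siRNA samples. Sample 4 was the highest of the 6, while samples 5 and 6 were the lowest. Pfkl, the liver-type phosphofructokinase, had the most negative fitted change of the tested members, -0.20 (SE 0.10, edgeR adjusted p 0.483), with 604, 542 and 469 CPM in YY1 siRNA samples, against 662, 616 and 577 CPM in control siRNA samples. Sample 4 lay among the controls. Gpi1, which turns glucose 6-phosphate into fructose 6-phosphate, had 1859, 1604 and 1491 CPM, against 1938, 1916 and 1764 CPM. The other members of this stage, Pfkm, Pfkp, Aldoc and Tpi1, had log2 fold changes between -0.14 and 0.034.

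Of the 5 tested members of the lower stage, 3 had a fitted change below 0 (median log2 fold change -0.12). Pgam1, its phosphoglycerate mutase, was the member with the smallest p. It had 213, 187 and 188 CPM in YY1 siRNA samples, against 224, 226 and 218 CPM in control siRNA samples, and all 3 YY1 siRNA samples lay below all 3 controls. Its mean level was 87.8% of control, with a 95% interval of the fold change from 0.786 to 0.981 (log2 fold change -0.19, SE 0.074, edgeR unadjusted p 0.0249, adjusted p 0.401). The gene lies on chromosome 19 from 41911923 to 41918660 (mm10, plus strand), and 41.5% of the 50-base words of its longest transcript also occur in transcripts of other genes, chiefly Pgam1-ps2, so its counts are uncertain.

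Pkm, the pyruvate kinase gene that yields ATP in the last step, had 6185, 5573 and 5142 CPM in YY1 siRNA samples, against 6253, 6129 and 5950 CPM in control siRNA samples. Samples 5 and 6 lay below every control and sample 4 lay among them (log2 fold change -0.12, SE 0.11, edgeR adjusted p 0.681). Gapdh, often used as a reference gene, had 1918, 1596 and 1408 CPM, against 1887, 1924 and 1764 CPM. Samples 5 and 6 again lay below every control, and sample 4 lay among them (log2 fold change -0.18, SE 0.11, edgeR adjusted p 0.551). Pgk1, the kinase of the same stage, had no such drop in sample 6, with 1928, 1734 and 1988 CPM, against 1835, 1874 and 1877 CPM.

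The main enolase could not be measured. Eno1 had 4, 1 and 3 counts in YY1 siRNA samples and 7, 5 and 5 counts in control siRNA samples, which did not overlap but lay near the 3-count floor. Its near-copy Eno1b, named after its values were seen, had 14, 2 and 7 counts, against 19, 3 and 13 counts. Of the 50-base words of Eno1's longest transcript, 72.2% occur in transcripts of other genes, first of all Eno1b. The sources used here do not give how reads that match several places were counted, and its part in these counts was not tested. The neuronal enolase Eno2, with 0.255% of such words, had 21, 18.6 and 20.6 CPM, against 17.3, 21.2 and 17.3 CPM, with overlapping groups. Words shared with other genes exceeded 10% in 11 of the 35 members, among them Pgk1 (68.0%), Bnip3 (62.4%), Pkm (34.4%), Gapdh (27.8%) and Ldhb (27.0%), and levels of these genes are uncertain for the same reason.

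Of the 4 genes of lactate production and transport, 3 had a fitted change below 0, and of the 3 regulators of flux 1 did (median log2 fold changes -0.042 and 0.026). Ldha, which reduces pyruvate to lactate, had 3288, 2739 and 2867 CPM in YY1 siRNA samples, against 3051, 3052 and 3075 CPM in control siRNA samples. The controls agreed closely and the YY1 siRNA samples lay on both sides of them (log2 fold change -0.045, SE 0.10, edgeR adjusted p 0.881). The lactate carriers Slc16a1 (MCT1) and Slc16a3 (MCT4) had log2 fold changes of 0.065 (SE 0.077) and -0.071 (SE 0.080). Among the regulators, Pdk1, the kinase that shuts pyruvate out of the mitochondrial dehydrogenase, had 426, 443 and 450 CPM in YY1 siRNA samples, against 424, 419 and 440 CPM in control siRNA samples. All 6 values lay close together (log2 fold change 0.039, SE 0.073, edgeR adjusted p 0.858). Pfkfb3 and Pfkfb4, which set the level of fructose 2,6-bisphosphate, averaged 31.8 ± 2.81 and 6.99 ± 0.651 CPM in YY1 siRNA samples, and 31.3 ± 3.98 and 7.70 ± 0.606 CPM in control siRNA samples (SD, n = 3 each).

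At the aldolase and lactate dehydrogenase steps, nearly all RNA came from 1 of the isoenzyme genes compared. Per kilobase, Ldha made up 99.8% of lactate dehydrogenase RNA in each sample, and Aldoa 99.2% to 99.3% of the RNA of both aldolases. Ldhb held 42 to 63 counts in a sample. Hk1 made up 60.6% ± 2.62 of hexokinase RNA in YY1 siRNA samples and 61.0% ± 0.556 in control siRNA samples (SD, n = 3 each). Phosphofructokinase RNA was mixed. Pfkl made up 55.9%, 55.1% and 54.5% of it in YY1 siRNA samples, against 59.1%, 58.0% and 57.1% in control siRNA samples, and Pfkm 22.8%, 22.7% and 23.2%, against 19.7%, 20.7% and 21.1%. Both shares were apart between the groups, Pfkl below and Pfkm above the controls, but they were singled out among 11 such shares after their values were seen and were not tested. Slc16a1, as a share of the RNA of both lactate carriers, was the other share whose groups did not overlap, at 79.4% ± 1.06 and 77.7% ± 0.694.

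All 4 members that are HIF alpha subunits or prolyl hydroxylases had a fitted change below 0 (median log2 fold change -0.083). Tested genes of the same kind outside the member list were mixed. The subunit gene Arnt and the hydroxylase genes Egln2 and Hif1an had fitted changes above 0 (log2 fold changes 0.25, 0.092 and 0.096). That of the subunit gene Arnt2 was below 0 (-0.16). Hif1a averaged 384 ± 15.1 CPM in YY1 siRNA samples and 401 ± 15.3 CPM in control siRNA samples, and Epas1 (HIF-2 alpha) 3.54 ± 0.900 and 3.62 ± 0.837 CPM (SD, n = 3 each). Per kilobase, Hif1a made up 98.8% to 99.3% of the RNA of both in every sample. Of the hydroxylases that restrain them, Egln1 (PHD2) had 349, 315 and 290 CPM in YY1 siRNA samples, against 349, 358 and 358 CPM in control siRNA samples. The groups did not overlap, but sample 4 and the lowest control were equal to 3 digits (log2 fold change -0.16, SE 0.082, edgeR adjusted p 0.494). Egln3 (PHD3), itself a HIF target, was more abundant than Egln1. Per kilobase it made up 79.7%, 78.9% and 79.6% of the RNA of both in YY1 siRNA samples and 79.4%, 79.1% and 77.8% in control siRNA samples. It had 1016, 873 and 839 CPM, against 998, 1002 and 931 CPM.

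Of the 8 other HIF targets, 5 had a fitted change below 0 (median log2 fold change -0.046). Ero1l, an oxidase of protein folding in the endoplasmic reticulum, was the most abundant of them, with 3744, 3556 and 3482 CPM in YY1 siRNA samples, against 3839, 3960 and 3382 CPM in control siRNA samples. Control siRNA sample 3 was the lowest of the 6. Ndrg1, a stress-response gene, had 1773, 1529 and 1413 CPM, against 1741, 1752 and 1584 CPM. The collagen prolyl hydroxylase genes P4ha1 and P4ha2 and the surface carbonic anhydrase gene Car9 had log2 fold changes of -0.080, -0.039 and -0.085, each smaller than its SE. Car9, a common marker of hypoxic tumour cells, was low at 15.8 ± 1.68 CPM in YY1 siRNA samples and 16.8 ± 1.63 CPM in control siRNA samples (SD, n = 3 each).

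The 3 hypoxia members with a fitted change above 0 were Bnip3, Vegfa and Ankrd37, and they are described here because of their values in sample 6. Bnip3, a mitophagy receptor, had 1105, 1166 and 1647 CPM in YY1 siRNA samples, against 999, 1032 and 1215 CPM in control siRNA samples. Samples 4 and 5 lay within the control range. Its log2 fold change, 0.27 (SE 0.15, edgeR adjusted p 0.516), was 0.063 without sample 6. Ankrd37, an ankyrin repeat gene, had 240, 235 and 330 CPM, against 235, 249 and 252 CPM, so that sample 6 alone lay above the controls. Its fitted change was 0.13 with all samples and -0.051 without sample 6. Vegfa, the angiogenic growth factor, had 1050, 1210 and 1232 CPM, against 1046, 1094 and 1041 CPM, with samples 5 and 6 above every control (log2 fold change 0.13, SE 0.091, edgeR adjusted p 0.579). Ankrd37 overlaps Lrp2bp and Ufsp2 on the other strand and Bnip3 overlaps Gm18258 and Gm45507. Such an overlap is not particular to these genes, since 15 members have one, Gapdh, Aldoa and Tpi1 among them. The sources used here do not give whether counting used strand, and the part of these overlaps in the values of sample 6 was not tested.

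**Figure D3:**
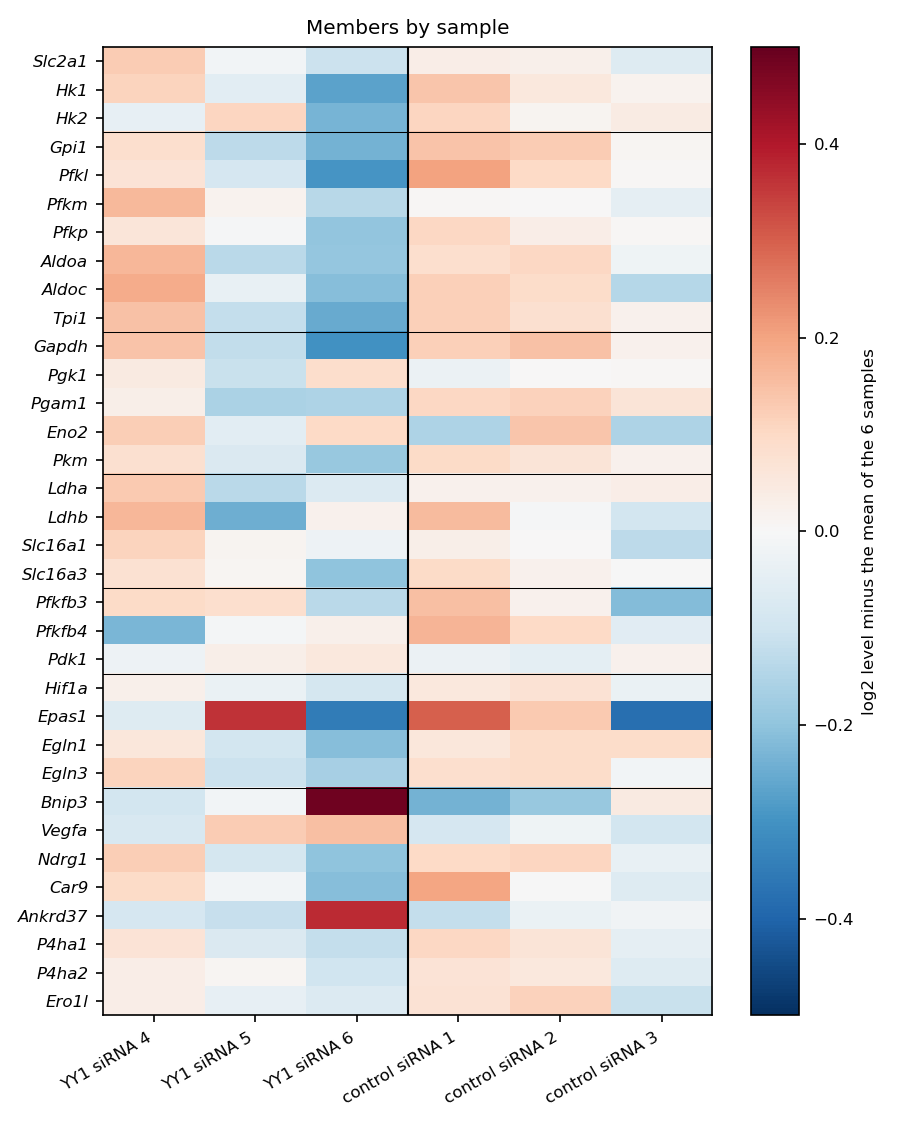
Log2 level of each tested member in each sample minus its mean over the 6 samples, YY1 siRNA samples left of the black line and control siRNA samples right of it. YY1 siRNA sample 6 is blue for most members and deep red for Bnip3 and Ankrd37, while sample 4 resembles control siRNA sample 1.

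Much of the spread lay within the YY1 siRNA group. The SD was larger among YY1 siRNA samples than among control siRNA samples for 28 of 34 members. YY1 siRNA sample 6 was the lowest of the 6 samples for 20 of 34 members and the highest for 5, while samples 4 and 5 were lowest for 1 and 4. Control siRNA samples 1, 2 and 3 were lowest for 2, 1 and 6. The most frequent highest samples were control siRNA sample 1, with 11 members, and YY1 siRNA sample 4, with 10. None of these counts was made over all genes, so they are not a trait of the members. Sample 6 also deviated most over all 12148 genes tested. The SD over genes of its log2 level minus the mean of the other 5 samples was 0.293. For the other samples that SD was 0.184 to 0.223. The glycolysis level, the median over members of the log2 level relative to its mean, was 0.10, -0.052 and -0.17 in YY1 siRNA samples 4, 5 and 6, against 0.10, 0.042 and 0.0051 in control siRNA samples 1, 2 and 3. The hypoxia level was 0.034, -0.036 and -0.11, against 0.071, 0.068 and -0.041. Samples of the groups overlapped in both.

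The glycolysis level moved with the no-gene share, the percentage of counts that the tables assign to no gene. It was 7.87%, 10.7% and 11.3% in YY1 siRNA samples 4, 5 and 6, against 7.99%, 8.64% and 9.03% in control siRNA samples 1, 2 and 3. Ordered by it from low to high, the samples run 4, 1, 2, 3, 5, 6, and ordered by the glycolysis level from high to low they run 1, 4, 2, 3, 5, 6. The hypoxia level followed that share less closely, in the order 1, 2, 4, 5, 3, 6. The mean log2 level of the 3 tested nuclear-retained RNAs Malat1, Neat1 and Kcnq1ot1, relative to its mean, was -0.54, 0.40 and 0.42 in YY1 siRNA samples, against -0.22, -0.22 and 0.15 in control siRNA samples, and ordered the samples as the no-gene share did. Their part in the glycolysis level was not tested. With the no-gene share as a covariate, chosen after seeing the data, the median fitted change was 0.011 for glycolysis members and 0.0077 for hypoxia members. Pgam1 then had a log2 fold change of -0.11 (edgeR unadjusted p 0.0942) and Gapdh -0.029. That share averaged 9.95% in YY1 siRNA samples and 8.55% in control siRNA samples. With 6 samples, this fit cannot tell the share and the siRNA apart.

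**Figure D4:**
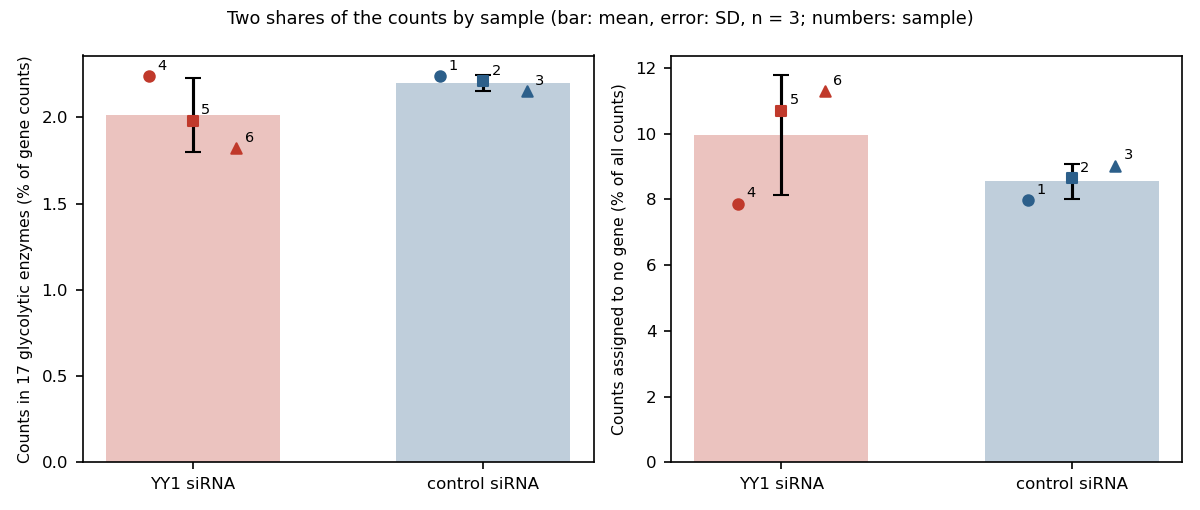
Left, the share of gene counts in 17 glycolytic enzymes, and right, the share of all counts in no gene, for 3 YY1 siRNA samples and 3 control siRNA samples (points with sample numbers, bars for the mean, error bars for the SD). Samples 5 and 6 are lowest on the left, at 1.98% and 1.82%, and highest on the right, at 10.7% and 11.3%, while sample 4 lies with the controls in both panels.

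Without YY1 siRNA sample 4, 12 of 34 members (35.3%) had an unadjusted edgeR p under 0.05, against 19.1% of all genes, and 0 had an adjusted p under 0.05 (smallest 0.101, for Pgam1). Of the 12, 10 were lower in the remaining YY1 siRNA samples, 5 and 6: Hk1, Gpi1, Pfkl, Aldoa, Tpi1, Gapdh, Pgam1, Egln1, Egln3 and Ndrg1. Bnip3 and Vegfa were higher. Without sample 6 the count was 1 (2.94%), Pgam1 (edgeR unadjusted p 0.0388), against 8.21% of all genes. Without sample 5 the count was 0, against 11.8% of all genes.

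The deviation of sample 6 differed between members with the GC content of their transcripts. The other 5 deposited tables bear the word combined in their names, which the table of sample 6 does not. What it refers to is not given in the labels, and its part in the deviation was not tested. Relative to the mean of the other 5 samples, its log2 level had a median of -0.18 over the 34 members and ran from -0.42 for Epas1, which had 42 to 90 counts in a sample, to 0.58 for Bnip3. Across the members Spearman's rho with GC content was -0.45 and with exon length -0.31, and across 12089 tested genes with a gene model the same values were -0.29 and -0.20. The points share 1 library and genes are not replicates, so these are descriptions. Bnip3, with 41.6% GC, was highest, but Hif1a and Ero1l, at 41.3% and 41.6%, deviated by -0.11 and -0.084. With offsets for length and GC content, 0 members were called (smallest edgeR adjusted p 0.252, for Pgam1).

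**Figure D5:**
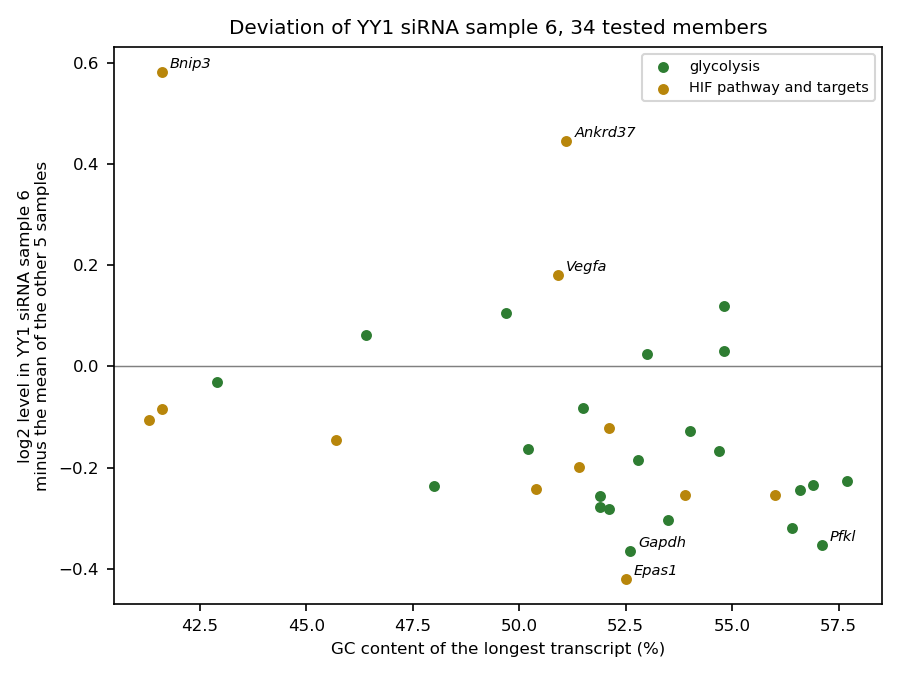
Log2 level in YY1 siRNA sample 6 minus the mean of the other 5 samples, against the GC content (%) of the longest transcript, for 34 tested members coloured by role. Bnip3, Ankrd37 and Vegfa lie highest, and Pfkl, Gapdh and Epas1 lie lowest.

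Other genes of the same pathways gave no call either: edgeR and DESeq2 called 0 members of each list that follows. The 11 tested isoenzymes and regulators of glycolysis outside the 35 had a median log2 fold change of -0.021, with 6 fitted changes below 0. Of 13 tested genes of pyruvate entry into mitochondria, 1 was higher at an unadjusted edgeR p under 0.05, where 5.38% of all genes were higher. It was Mpc2, a subunit of the mitochondrial pyruvate carrier, with 27.7, 27.6 and 39.4 CPM, against 19.4, 22.7 and 25.2 CPM (log2 fold change 0.49, SE 0.15, edgeR adjusted p 0.332). Of 8 genes of the pentose phosphate pathway, which branches from glucose 6-phosphate, 7 had a fitted change below 0 and 2 had such a p, both lower, against 5.46% of all genes lower at that p. Pgd, its second dehydrogenase, had 222, 198 and 181 CPM in YY1 siRNA samples, against 256, 236 and 230 CPM in control siRNA samples, with no overlap (log2 fold change -0.26, SE 0.085, edgeR adjusted p 0.317). Taldo1, the transaldolase gene, averaged 250 ± 22.1 and 284 ± 15.2 CPM (SD, n = 3 each). None of 8 tested glycogen genes had such a p.

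Among 16 tested regulators of the HIF pathway outside the 35, 2 had an unadjusted edgeR p under 0.05. Both were higher in YY1 siRNA samples. Arnt, the partner subunit of Hif1a, had 112, 115 and 114 CPM in YY1 siRNA samples, against 90.9, 102 and 93.3 CPM in control siRNA samples, and all YY1 siRNA samples lay above all controls (log2 fold change 0.25, SE 0.069, edgeR adjusted p 0.261). Vhl had 100, 96.5 and 113 CPM, against 82.2, 80.1 and 98.5 CPM, with overlap. Of 34 other hypoxia-induced genes, 5 were lower and 1 higher at that p, where 5.46% of all genes were lower and 5.38% higher. The list median was -0.027. The lower ones included Car12, another surface carbonic anhydrase (15.6, 14.6 and 12.2 CPM, against 22, 19.7 and 16 CPM, edgeR adjusted p 0.265), Stc2, Loxl2 and Bhlhe41. Wsb1 was the higher one, at 240, 337 and 393 CPM, against 215, 229 and 261 CPM, with samples 5 and 6 above the controls.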

How the data were processed

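RNA of 6 KMWT1 samples was counted per gene. The authors deposited a table of raw counts by gene symbol for every sample. Per the submitters' processing notes STAR 2.6.1a, edgeR 3.30.0 and the build mm10 were used. No source used here gives the counting program, the strand setting or the handling of reads with several matches. The 2 rows that name no gene, 7.87% to 11.3% (no gene) and 1.01% to 1.15% (ambiguous) of counts, entered neither library sizes nor tests.

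The main test was edgeR 4.0.16 (R 4.3.3, quasi-likelihood, filterByExpr, TMM, robust, two-sided) over all 12148 genes kept, with Benjamini-Hochberg adjustment and a threshold of 0.05. DESeq2 1.42.0, limma-voom (limma 3.58.1), other normalizations and filters, thinned counts, offsets for length and GC (mgcv 1.9.3) and leaving out each sample were alternatives. The steps were tested on simulated counts. Gene models are GENCODE M21 (mm10; 98.3% of symbols matched), lengths are exon unions, and promoters are RefSeq's (Ero1l under the symbol Ero1a). Replicate pairs differed beyond counting error (ratios of chi-square to its degrees of freedom of 3.13 to 32.5).

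The members and lists were chosen with earlier results of these data known. All members are named. Sample values are given for members with an unadjusted p under 0.05, without overlap of the groups or most abundant in their role, and of other lists for up to 5 genes of smallest p; 1 such gene is not reported here. Eno1b, Gpi1, Pfkl, Gapdh, Pgk1, Eno2, Ndrg1, Bnip3, Vegfa and Ankrd37 were given sample values after these were seen.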

Additional observations from a re-analysis of the deposited data

Results flagged for a closer look

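Counts that the tables assign to no gene enter no comparison of genes. They made up 10.7% of all counts in sample 5 of the YY1 siRNA group and 11.3% in sample 6, above the control siRNA maximum of 9.03%, and 7.87% in sample 4. Samples 5 and 6 also had the smallest shares of gene counts in glycolytic enzymes, 1.98% and 1.82%. The part of these counts in the glycolysis level was not tested.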

How the results depend on the processing

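Under all 16 alternatives, each left-out sample included, 0 members passed the adjusted threshold. Yy1 stayed called, with a log2 fold change of -0.70 to -0.65. The number of genes called, 1 in the main test, was 7 with library size alone, 83 with no filter on low counts, 19 with DESeq2 and 12 with offsets for length and GC, and 1 to 41 with 1 sample left out (41 for YY1 siRNA sample 4, 3 for YY1 siRNA sample 6, 2 for control siRNA sample 3). Members with an unadjusted p under 0.05, 1 in the main test, numbered 2 with no filter on low counts (Pgam1 and Pfkl), 2 with DESeq2 (Pgam1 and Bnip3), 0 with the no-gene covariate, chosen after seeing the data, and 0 to 12 with 1 sample left out (12 when YY1 siRNA sample 4 was left out, 0 for YY1 siRNA sample 5 and for control siRNA samples 1 and 2). With no filter this was 5.88% of members, against 12.2% of all genes. With DESeq2 it was 5.88%, against 7.61%, and with the covariate 0, against 7.7%. With 1 sample left out, 5.42% to 19.1% of all genes had such a p. The members' share exceeded that of all genes only without YY1 siRNA sample 4 (35.3% against 19.1%). The glycolysis median ran from -0.13 to -0.030 and the hypoxia median from -0.12 to -0.022 over the alternatives other than that covariate. Fitted changes of uncalled members turned sign in at most 4 of 34 members under each of those alternatives and in 14 of 34 with the covariate. For all of these the cause was not tested. No paired analysis was possible because the groups are numbered apart, 1 to 3 and 4 to 6. Counting error is small for most members, and the spread between samples limits precision.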
